A study of Homo sapiens with 12 samples.

Results

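LTR12 elements are the long terminal repeats (LTRs) of HERV9, a family of human endogenous retroviruses, and the HERV9 internal sequence lies between a pair of them in a complete provirus. Their reads were followed in the lung adenocarcinoma cell line NCI-H1944 after pull-down of double-stranded RNA with the J2 antibody. The members are all regions of the deposited count table whose repeat annotation holds 1 repeat name that starts with LTR12 or HERV9. They number 8175 of 5254113 regions, of which 6533 carry an LTR12 name and 1642 a HERV9 name. A region here is an interval of 1 strand as the authors delimited it, with or without reads in these libraries, and not a whole repeat. The members' median length was 126 bp, an element can be split over several regions, and a region can run past the end of its element.

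Cells labelled SCR have a wild-type genotype label, and cells labelled IFNAR1sg have a knockout of IFNAR1, a chain of the type I interferon receptor. Whether the knockout is 1 clone is not given in the labels. The treatment labels are DMSO, MPS1i (BAY-1217389, an inhibitor of the mitotic kinase MPS1, at 100 nM for 48 h) and IFNb (recombinant interferon beta at 5 ng/ml). MPS1i was washed out before a further 24 h of culture, the time in which the IFNb groups had interferon; whether these first received DMSO is not stated. Each of the 6 groups had 2 libraries, 12 in all. Nothing in the labels says whether the 2 came from separate cultures, so p-values measure the spread between these libraries, which may be technical. No input RNA was analysed here, and more transcript and a larger double-stranded share of it cannot be told apart.

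Solitary LTR12 copies can act as promoters, and most copies in the genome are solitary because recombination between the LTRs of a provirus removes the internal part. The family is named in the literature for promoter or enhancer activity at nearby genes and for its response to inhibitors of histone deacetylases. In most somatic cells such elements are held silent by DNA methylation and by histone methylation laid down through KRAB zinc finger proteins. Pairing of sense and antisense repeat transcripts, or of inverted copies within 1 transcript, gives RNA that J2 can bind.

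GENCODE v29 annotates 46 transcripts of 39 genes that start inside a member region or within 100 bases past its end on the same strand. The first 150 bases of 2 of these noncoding transcripts, annotated to begin at the end of a member region (LINC02818) and 73 bases past one (ENSG00000251598), are shown because the intron reads of both genes rose with MPS1i in both genotypes (values below). The sequences are from the GENCODE v29 transcript set (GRCh38), 5′ to 3′, all in lower case since no part is marked.
LINC02818 (LTR12C region, chromosome 1, minus strand, start 179836124): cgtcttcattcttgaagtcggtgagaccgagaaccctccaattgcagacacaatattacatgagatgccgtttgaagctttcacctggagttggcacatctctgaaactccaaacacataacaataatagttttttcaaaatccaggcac
ENSG00000251598 (LTR12F region, chromosome 4, minus strand, start 132124031): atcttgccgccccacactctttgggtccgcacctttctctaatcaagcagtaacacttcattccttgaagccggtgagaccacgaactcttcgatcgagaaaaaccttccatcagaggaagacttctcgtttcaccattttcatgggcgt

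The libraries held 3739443 to 7430687 reads, and the members took between 0.0252% and 0.0639% of them. The SCR IFNb libraries stood apart, with the lowest totals (3842532 and 3739443 reads), the fewest regions with reads (295367 and 296843, against 566704 to 935974 elsewhere) and the largest share of reads in regions that share an exon base (49.6% and 47.9%, against 33.2% to 39.7%). Their part in the IFNb results was not tested. Levels are given as CPM, reads per megaread in tested regions after TMM scaling, edgeR's correction for library composition. Without TMM scaling the median change of all regions with IFNb in SCR moved from -0.36 to -0.84 on the log2 scale. Of the epithelial marker genes, KRT8, KRT18, KRT7, CDH1 and EPCAM had introns with enough reads to test, while KRT19 was listed at 0 and NAPSA, SFTPB and MUC1 had 45, 2 and 3 reads. The intron sum of IFNAR1 lay between 0 and 8.03 CPM in the SCR libraries and between 3.57 and 5.34 CPM in the IFNAR1sg libraries. Intron reads lie outside the coding sequence, so they do not check the knockout. RIGI, an interferon-induced RNA sensor, had an intron sum of 20.2 and 21.2 CPM in IFNAR1sg with DMSO and of 52.1 and 55.9 CPM with IFNb, beside 26.7 and 30.6 CPM and 175 and 163 CPM in SCR.

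Of the 8175 members, 4126 had at least 1 read and 4049 had none. The members together held 28913 reads, and 3734 of those with reads had 10 or fewer. Regions outside genes (5322) held 45.5% of the reads, and regions in introns on the strand of the gene (1499) held 40.2%. Regions opposite to a gene (1346) held 7.45%, and 8 regions that share an exon base held 6.84%. Only 67 members had enough reads to be tested singly, 62 LTR12 and 5 HERV9. They held 44.3% of the member reads. A member that passed this filter did so through its groups with many reads, so counts over these 67 describe the well-covered regions alone.

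Both families rose with MPS1i in both genotypes when their reads were summed over all regions without an exon base. The LTR12 sum was 297 and 254 CPM with DMSO, 642 and 615 CPM with MPS1i and 305 and 310 CPM with IFNb in SCR. In IFNAR1sg it was 299 and 295, 660 and 617, and 274 and 289 CPM. The MPS1i libraries of both genotypes thus lay above all other libraries, with no overlap. The change with MPS1i was 1.19 ± 0.09 (log2 fold change ± SE; edgeR quasi-likelihood test, adjusted p = 2.6e-21) in SCR and 1.10 ± 0.09 (adjusted p = 1.2e-19) in IFNAR1sg. The difference between these changes was 0.09 ± 0.12 (adjusted p = 0.94).

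The HERV9 sum moved in opposite directions with MPS1i and IFNb in SCR. It was 37.8 and 41.6 CPM with DMSO, 85.6 and 77.5 CPM with MPS1i and 16.7 and 14.7 CPM with IFNb in SCR. In IFNAR1sg it was 35.6 and 44.4, 100.1 and 85.9, and 33.8 and 36.9 CPM. The groups of SCR did not overlap, and in IFNAR1sg the lower DMSO library lay between the IFNb libraries. It rose with MPS1i by 1.03 ± 0.14 (adjusted p = 4.5e-09) in SCR and by 1.20 ± 0.14 (adjusted p = 6.4e-12) in IFNAR1sg. With IFNb it fell in the SCR cells by 1.34 ± 0.19 (adjusted p = 5.9e-09), and the IFNb change differed between the genotypes by -1.14 ± 0.24 (adjusted p = 0.00017). HERV9 reads per 100 LTR12 reads were 12.7 and 16.4 with DMSO, 13.3 and 12.6 with MPS1i and 5.49 and 4.74 with IFNb in SCR. In IFNAR1sg these ratios were 11.9 and 15, 15.2 and 13.9, and 12.4 and 12.7.

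The plot of subfamily sums by library shows that the rise with MPS1i was spread over the family. In SCR, 8 of the 10 subfamilies rose and 0 fell, against 15.2% of all 1811 repeat subfamilies that rose. In IFNAR1sg it was again 8 that rose and 0 that fell, against 20.9%. The median change of the 10 was 1.08 in SCR and 1.07 in IFNAR1sg, and that of all subfamilies was 0.14 and 0.22. Between MPS1i and IFNb in SCR all 10 were higher with MPS1i, against 42% of all subfamilies, with a median difference of 1.5 against 0.64. The last contrast shares its MPS1i libraries with the first.

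HERV9-int, an internal sequence of the provirus, had the largest change of the 10. It was at 3.33 and 3.68 CPM with DMSO and at 21.9 and 24.4 CPM with MPS1i in SCR, and at 2.89 and 3.19 against 27.5 and 20.9 CPM in IFNAR1sg. The change was 2.73 ± 0.29 (adjusted p = 7e-13) and 2.97 ± 0.29 (adjusted p = 1.2e-14), place 8 and place 10 among the subfamilies ordered from the highest change. Its 609 reads came from 239 regions, none of them deep enough to test singly, and the region with most reads gave 5.25% of them. LTR12D was at 8.66 and 7.94 CPM with DMSO and at 30.6 and 37.8 CPM with MPS1i in SCR, a change of 2.05 ± 0.22 (adjusted p = 5.1e-13), and at 10.0 and 9.56 against 36.4 and 41.1 CPM in IFNAR1sg (1.99 ± 0.21, adjusted p = 1.4e-13). LTR12C, the largest subfamily with 4721 regions, was at 206 and 182 CPM with DMSO and at 471 and 448 CPM with MPS1i in SCR (1.24 ± 0.09, adjusted p = 2.6e-21). In IFNAR1sg it was at 207 and 215 against 482 and 452 CPM (1.14 ± 0.09, adjusted p = 1.4e-19).

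The other internal sequences changed by different amounts. HERV9N-int rose by 1.47 ± 0.33 (adjusted p = 0.0003) in SCR and by 1.81 ± 0.33 (adjusted p = 6.6e-06) in IFNAR1sg. HERV9NC-int, the most abundant of the 3, was at 30.7 and 33.3 CPM with DMSO and at 51.6 and 41.7 CPM with MPS1i in SCR, a change of 0.53 ± 0.16 (adjusted p = 0.01). Over 13 alternative settings that value ran from -0.04 to 1.33, and the call was lost or reversed in 5 of them. With 1 library left out it ran from 0.42 to 0.69 and the call was lost in 2 of 12 fits. In IFNAR1sg its change was 0.75 ± 0.15 (adjusted p = 6.3e-05). LTR12, LTR12E and LTR12_ rose by 1.05 ± 0.19, 1.12 ± 0.24 and 0.97 ± 0.17 in SCR and by 0.99 ± 0.18, 1.22 ± 0.24 and 0.72 ± 0.16 in IFNAR1sg. Over the alternative settings their SCR values ran from 0.47 to 2.11, 0.73 to 1.42 and 0.28 to 1.95, and each SCR call was lost in 1. LTR12E and LTR12_ also lost their IFNAR1sg calls in 1 setting. LTR12D and HERV9N-int lost or reversed theirs in 1 setting in each genotype. With 1 library left out the LTR12E value in SCR ran from 0.67 to 1.84. LTR12B and LTR12F did not pass the test: their values were 0.30 ± 0.35 and 0.36 ± 0.23 in SCR (adjusted p = 0.59 and 0.26) and 0.71 ± 0.34 and 0.35 ± 0.22 in IFNAR1sg (adjusted p = 0.11 and 0.25).

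**Figure D1:**
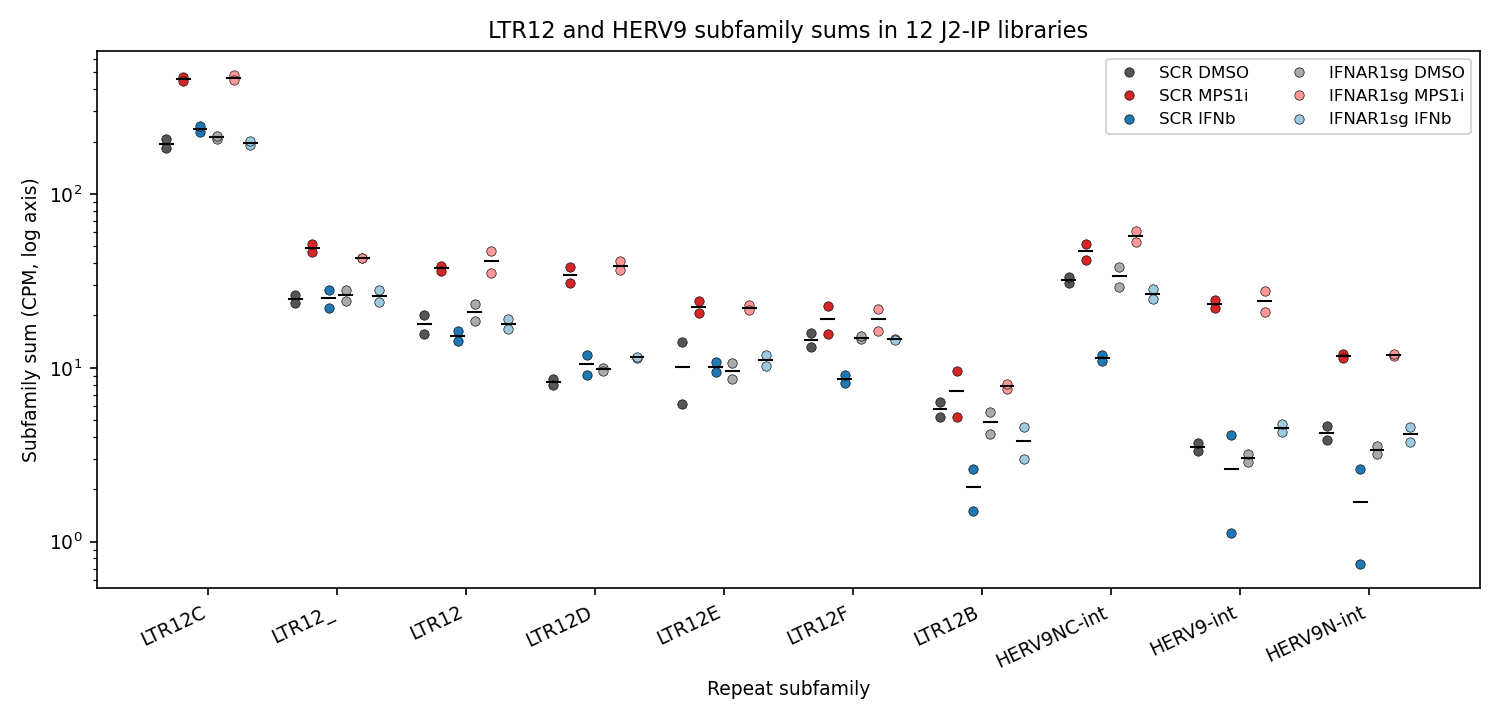
Sums of the 10 subfamilies in CPM on a log axis, with a point for each library and a bar at the mean of the 2 libraries of a group. The MPS1i points of both genotypes stand above the DMSO points for LTR12C, LTR12D and HERV9-int, and the SCR IFNb points stand lowest for HERV9NC-int.

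With IFNb in SCR, 1 of the 10 subfamilies rose and 4 fell, against 6.85% of all subfamilies that rose and 37.3% that fell. HERV9NC-int fell from 30.7 and 33.3 CPM to 11.9 and 10.9 CPM, by 1.48 ± 0.22 on the log2 scale (adjusted p = 1.4e-08), while its IFNAR1sg libraries had 25 and 28.4 CPM with IFNb against 29.1 and 38.1 CPM with DMSO. HERV9N-int, LTR12B and LTR12F fell by 1.31 (adjusted p = 0.033), 1.49 (adjusted p = 0.0095) and 0.76 (adjusted p = 0.023). Each of these 3 calls was lost on leaving out single libraries. HERV9N-int was at -0.68 without SCR IFNb library 1 and also lost without either SCR DMSO library, and LTR12F was lost without SCR DMSO library 1 (-0.59) or either SCR IFNb library. LTR12B was at -1.14 (adjusted p = 0.13) without SCR IFNb library 2, at -1.31 (adjusted p = 0.073) without SCR DMSO library 1 and at -0.52 (adjusted p = 0.52) without its most-read region. The median of the 10 was -0.32 and that of all subfamilies -0.56. LTR12C rose by 0.28 ± 0.10 (adjusted p = 0.014) with TMM scaling and was at -0.22 (adjusted p = 0.053) without it, so its direction rests on the scaling. In the difference of the IFNb change between the genotypes, 1 subfamily was higher (LTR12C, 0.38 ± 0.13, adjusted p = 0.025) and 1 lower (HERV9NC-int, -1.14 ± 0.28, adjusted p = 0.0011), against 3.04% and 19.8% of all subfamilies. The LTR12C call was lost without any 1 of 4 libraries (SCR DMSO 2, SCR IFNb 2, IFNAR1sg DMSO 2 or IFNAR1sg IFNb 1, adjusted p from 0.077 to 0.12), and its value was 0.019 without the filter, 0.054 in introns and -0.039 without TMM scaling. With IFNb in IFNAR1sg, between the genotypes under DMSO and in the difference of the MPS1i change, 0 of the 10 passed.

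The sums were also taken by the position of the regions. In regions outside genes the LTR12 sum changed with MPS1i by 1.78 ± 0.10 in SCR and 1.57 ± 0.10 in IFNAR1sg, and in introns by 0.50 ± 0.11 and 0.56 ± 0.10, all past the threshold. The HERV9 sum changed outside genes by 1.81 ± 0.19 and 1.88 ± 0.19. In introns it was at 0.12 ± 0.20 (adjusted p = 0.72) and 0.29 ± 0.19 (adjusted p = 0.32). The difference between the classes was not tested. Intergenic reads in general also rose with MPS1i. Their sum outside the same-strand flanks of LTR12 regions (given below) changed by 0.43 ± 0.05 in SCR and 0.47 ± 0.05 in IFNAR1sg. One intron region of HERV9NC-int held 20.5% of all HERV9 reads, and without it the HERV9 change was 1.62 in SCR and 1.85 in IFNAR1sg. With IFNb in SCR the HERV9 sum without that region changed by -0.87 ± 0.21 (adjusted p = 0.00038), and HERV9NC-int alone lost its difference between the genotypes (-0.51, adjusted p = 0.27).

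The sums were also split into regions deep enough to test singly and the rest. The filter that makes this split reads the same libraries, so it partly sets the values on either side, which are given as a description. The summed LTR12 regions too shallow to test singly changed by 1.54 ± 0.10 in SCR and 1.31 ± 0.10 in IFNAR1sg, and the summed tested ones by 0.71 ± 0.10 and 0.79 ± 0.10. For HERV9 the untested regions changed by 1.90 ± 0.17 and 2.01 ± 0.16, while the tested ones were at -0.41 ± 0.22 (adjusted p = 0.18) and -0.05 ± 0.20 (adjusted p = 0.88). At an equal depth of 3739443 reads, 432 and 387 member regions would be expected to have a read with DMSO, 918 and 949 with MPS1i and 345 and 364 with IFNb in SCR. In IFNAR1sg the numbers were 466 and 447, 993 and 953, and 401 and 451. Set against all regions with a read at that depth, members made up 0.825 and 0.775 per 1000 with DMSO, 1.72 and 1.72 with MPS1i and 1.19 and 1.23 with IFNb in SCR. In IFNAR1sg they made up 0.880 and 0.873, 1.52 and 1.59, and 0.836 and 0.849 per 1000. The MPS1i libraries were thus the highest by both counts, with no overlap within a genotype.

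Reads next to LTR12 regions outside genes also rose with MPS1i, most on the same strand and downstream. Within 2 kb downstream on the same strand the sum was 118 and 91.8 CPM with DMSO and 360 and 357 CPM with MPS1i in SCR, and 116 and 115 against 350 and 325 CPM in IFNAR1sg. The change there was 1.77 ± 0.10 in SCR and 1.55 ± 0.10 in IFNAR1sg. It was 1.37 and 1.30 from 2 to 5 kb and 1.24 and 1.41 from 5 to 10 kb. Upstream on the same strand it was 1.10 and 1.20 within 2 kb, 0.78 and 0.96 from 2 to 5 kb and 0.56 and 0.63 from 5 to 10 kb. On the opposite strand the values ran from 0.19 to 0.98 in SCR and from 0.16 to 1.07 in IFNAR1sg. All intergenic regions outside the same-strand bins were at 0.43 and 0.47. That sum still includes opposite-strand regions within 10 kb.

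The ratio of downstream to upstream reads within 2 kb was 1.74 and 1.36 with DMSO, 2.45 and 2.50 with MPS1i and 1.88 and 1.65 with IFNb in SCR. In IFNAR1sg it was 1.74 and 1.84, 2.20 and 2.36, and 1.85 and 1.56. The MPS1i libraries had the highest ratios of each genotype. The mean difference from DMSO was 0.52 on the log2 scale, and an exact two-sided permutation test within genotypes gave p = 0.056, the smallest of its 36 arrangements. For IFNb the difference was 0.06 (exact permutation p = 0.67).

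**Figure D2:**
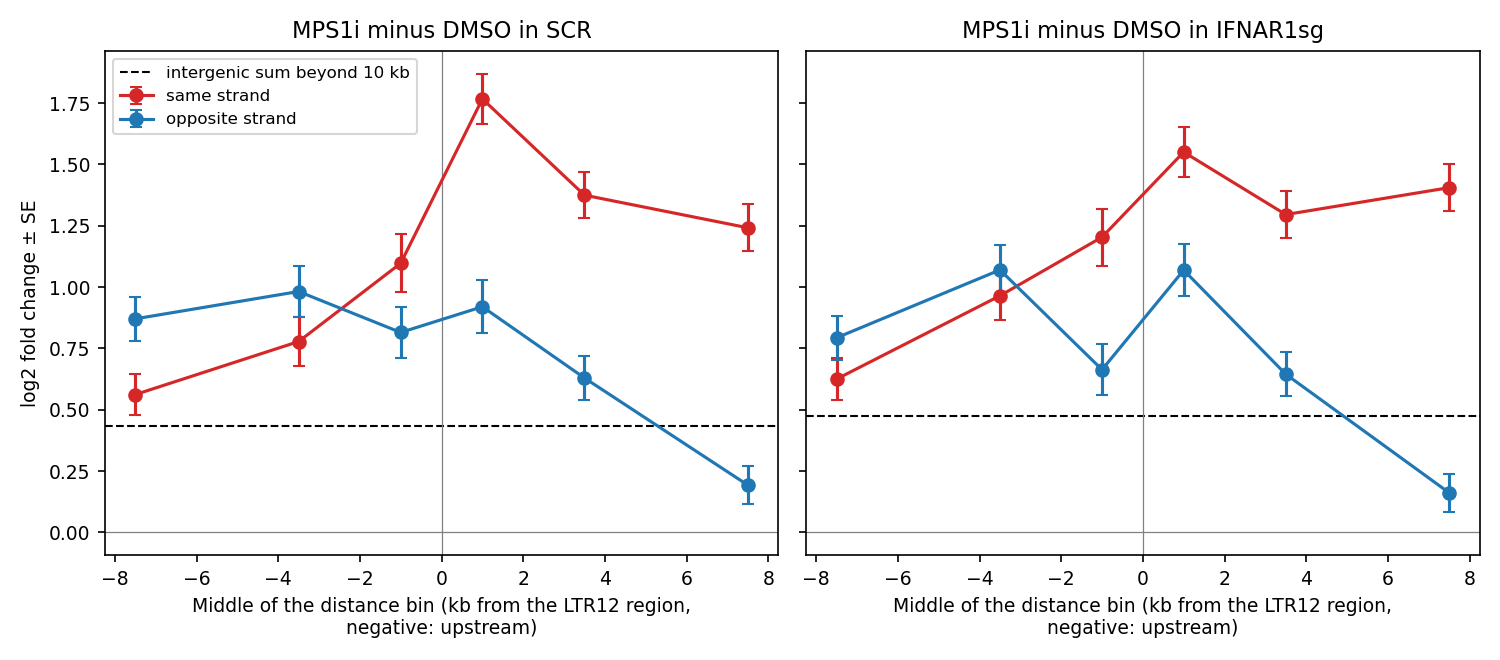
Change with MPS1i (log2 fold change ± SE) of summed reads by distance from intergenic LTR12 regions, in SCR (left) and IFNAR1sg (right), for the same strand in red and the opposite strand in blue. Downstream same-strand points stand highest, at 1.77 and 1.55 in the nearest bin. The dashed line, labelled as beyond 10 kb, marks all intergenic regions outside the same-strand bins, at 0.43 and 0.47. It includes opposite-strand regions within 10 kb.

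Of the 67 regions tested singly, 16 rose and 3 fell with MPS1i in SCR, against 9.55% and 7.97% of the 89111 regions tested. In IFNAR1sg 20 rose and 2 fell, against 9.4% and 7.87%. The median change of the 67 was 0.88 in SCR and 0.77 in IFNAR1sg, and that of all regions -0.03 and 0.01. Of the 16, 13 were also among the 20 (81.2% and 65% of the lists). The 2 contrasts share no libraries, but both come from 1 fit with 1 filter and a shared estimate of spread. The same overlap over all 89111 regions was not counted. The 16 comprised 12 of the 30 tested regions outside genes, 3 of the 30 in introns and 1 of the 4 with an exon base. All 3 that fell were in introns. Calls by position were not counted over all tested regions, so these splits have no background share. With IFNb in SCR 4 rose and 9 fell, against 15% and 18.1%. Without TMM scaling 2 rose and 13 fell, against 6405 and 27224 of all 89111 regions. With TMM scaling the median of the 67 was 0.29 and that of all regions -0.36. Of those 9 regions 6 were in introns and 3 outside genes. With IFNb in IFNAR1sg 0 passed, against 0.68% of all regions in either direction (edgeR, 2 at unadjusted p under 0.05; DESeq2 also 0). Between the genotypes under DMSO 0 passed (0.0774% of all regions, 1 at unadjusted p under 0.05), and for the difference in the MPS1i change 0 passed (0.0628%, 3 at unadjusted p under 0.05), with DESeq2 also at 0 in both. The difference in the IFNb change passed in 3 regions upward and 1 downward, against 5.11% and 7.06%. Without TMM scaling it passed in 2 upward and 3 downward, against 1777 and 12258 of all 89111 regions. Between MPS1i and IFNb in SCR 13 were higher and 0 lower, against 6.83% and 5.78%.

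**Figure D3:**
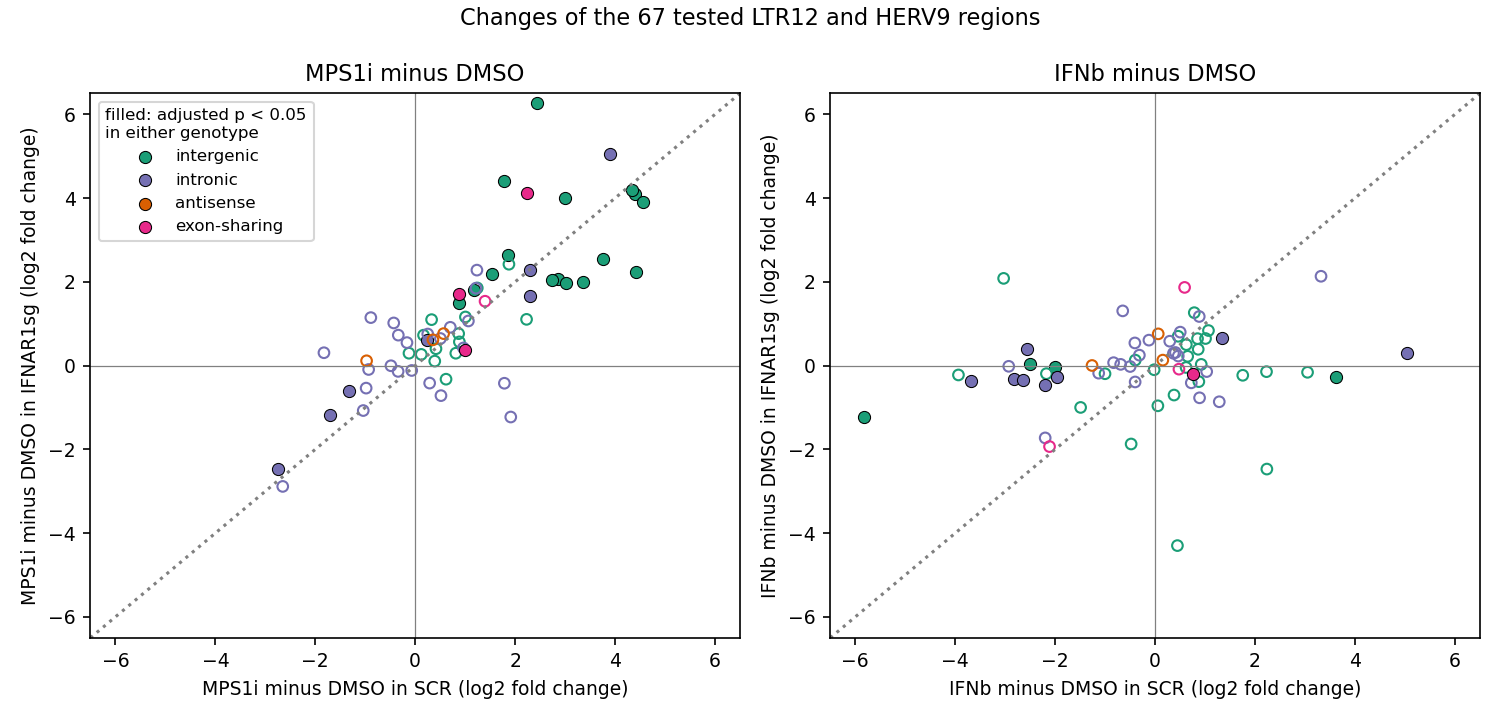
Log2 fold changes of the 67 tested regions in SCR (horizontal) and IFNAR1sg (vertical) for MPS1i (left) and IFNb (right), coloured by their position relative to genes and filled where they passed the test in either genotype. With MPS1i the 13 regions that rose in both genotypes lie in the upper right, and with IFNb the filled points are calls in SCR, since 0 regions passed in IFNAR1sg.

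The strongest call was an LTR12C region outside genes at chrX:119209192-119209597, minus strand (GRCh38), whose nearest coding gene, PGRMC1, starts 26648 bp away on the other strand. It was at 0.333 and 1.36 CPM with DMSO, 12.7 and 10.1 CPM with MPS1i and 11.2 and 9.40 CPM with IFNb in SCR. The IFNAR1sg libraries had 1.11 and 1.43, 8.30 and 7.04, and 0.790 and 1.36 CPM. It was thus high with both treatments in SCR and with MPS1i alone in IFNAR1sg. The changes were 3.76 ± 0.48 (MPS1i) and 3.62 ± 0.51 (IFNb) in SCR and 2.54 ± 0.45 and -0.27 ± 0.61 in IFNAR1sg. The IFNb change differed between the genotypes by 3.90 ± 0.83 (edgeR, adjusted p = 0.00062).

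An LTR12C region in an intron of MFSD8, which encodes a lysosomal membrane protein, rose against the direction of its gene. At chr4:127962914-127964499, minus strand, it was at 4.17 and 2.13 CPM with DMSO and 15.8 and 16.0 CPM with MPS1i in SCR, and at 2.89 and 3.19 against 9.53 and 9.98 CPM in IFNAR1sg. The changes were 2.30 ± 0.36 (adjusted p = 8.5e-07) and 1.67 ± 0.37 (adjusted p = 0.00059). The other intron reads of MFSD8 fell by 0.94 in both genotypes (adjusted p = 0.00014 and 4.6e-05). The region's IFNb libraries in SCR were at 2.23 and 5.64 CPM, beside 4.17 and 2.13 CPM with DMSO, so the groups overlap.

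Other LTR12C regions outside genes rose from near 0. At chr4:62490298-62491107, minus strand, 80 bp from the pseudogene ENSG00000248847 on the same strand, DMSO libraries of SCR had 0.167 and 0.194 CPM and MPS1i libraries 3.09 and 6.26 CPM. IFNAR1sg had 0 and 0.478 against 4.59 and 4.42 CPM. The changes were 4.56 ± 0.84 and 3.92 ± 0.77. At chr5:30346551-30347290, plus strand, SCR had 0.333 and 0 CPM with DMSO and 3.09 and 5.40 CPM with MPS1i (4.42 ± 0.84), and IFNAR1sg had 1.11 and 0.956 against 5.12 and 4.75 CPM (2.24 ± 0.61; adjusted p = 0.078 without IFNAR1sg DMSO library 2). Its IFNb change differed between the genotypes by 4.71 ± 1.57 (adjusted p = 0.036). That call was lost without any 1 of 5 libraries, the lowest value being 3.43 (adjusted p = 0.4) without SCR IFNb library 2. At chr10:72300800-72301882, plus strand and 24764 bp past the end of DDIT4, a stress-induced inhibitor of mTOR signalling, MPS1i changed the level by 3.01 ± 0.72 in SCR and 1.96 ± 0.65 in IFNAR1sg. In IFNAR1sg the DMSO libraries were at 2 and 0.159 CPM, and without the lower of them the call was lost (0.94, adjusted p = 0.46). It was also lost there without MPS1i library 1 (1.44, adjusted p = 0.23), and in SCR without MPS1i library 1 (2.37, adjusted p = 0.069).

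Some regions that rose lay past the ends of genes on their strand. At chr1:42916016-42917616, minus strand, 7759 bp past SLC2A1, the glucose transporter GLUT1, an LTR12C region was at 8 and 5.42 CPM with DMSO and 20.1 and 11.2 CPM with MPS1i in SCR. IFNAR1sg had 5.56 and 4.46 against 17.8 and 16.9 CPM. The changes were 1.18 ± 0.31 (adjusted p = 0.0044) and 1.80 ± 0.31 (adjusted p = 1.3e-05), while the SLC2A1 intron sum was at -0.32 (adjusted p = 0.062) in SCR and fell by 0.63 in IFNAR1sg. In SCR the region's call was lost without MPS1i library 1 (0.76, adjusted p = 0.24) or DMSO library 2 (0.93, adjusted p = 0.096). At chr17:68052234-68053541, plus strand, 5392 bp past KPNA2, a nuclear import factor, an LTR12C region changed by 1.53 ± 0.55 in SCR and 2.18 ± 0.57 in IFNAR1sg, with the KPNA2 intron sum at -0.19 and 0.34, neither past the threshold. The SCR call of this region was lost without any 1 of the 4 libraries compared, and the IFNAR1sg call without DMSO library 1 (1.86, adjusted p = 0.076).

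One LTR12D region lay near a gene whose intron sum rose with MPS1i, and another lay inside an antisense gene. At chr4:69657124-69658335, minus strand, 3875 bp before the start of UGT2A1, a glucuronosyltransferase, the region was at 0.666 and 0.775 CPM with DMSO and 4.94 and 4.97 CPM with MPS1i in SCR. IFNAR1sg libraries had 1.33 and 0.478 against 3.71 and 3.44 CPM. The changes were 2.75 ± 0.65 and 2.03 ± 0.64, and the UGT2A1 intron sum rose by 2.29 (adjusted p = 0.011) and 2.56 (adjusted p = 0.0052). The region's call in IFNAR1sg was lost without DMSO library 2 (1.41, adjusted p = 0.27) or either MPS1i library. At chr4:42314200-42320515, minus strand, a region in an intron of the antisense gene ENSG00000250781 changed by 3.90 ± 1.25 and 5.06 ± 1.11, beside 3.45 and 2.75 for the gene's other intron reads. With IFNb those intron reads were at -2.18 in SCR and -3.60 in IFNAR1sg, while the region was at 3.32 and 2.14, not past the threshold. Its DMSO libraries had 0.167 CPM at most, and its SCR call was lost without DMSO library 2 (3.15, adjusted p = 0.12) or MPS1i library 1 (3.57, adjusted p = 0.097). An LTR12E region outside genes at chr5:72936318-72936914, plus strand, went from 0.167 and 0 CPM to 2.47 and 2.16 CPM in SCR (4.35 ± 1.19) and from 0.445 and 0 to 4.06 and 3.76 CPM in IFNAR1sg (4.19 ± 1.00), and was listed at 0 in both SCR IFNb libraries. Both calls were lost without DMSO library 2 of their genotype (3.6, adjusted p = 0.058, in SCR and 3.07, adjusted p = 0.069, in IFNAR1sg).

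The member with most reads, 1604, was an LTR12C region at chr4:69574564-69575645, minus strand, which shares 1 base with an exon of the pseudogene ENSG00000251177. It was at 19.0 and 19.0 CPM with DMSO, 43.0 and 33.9 CPM with MPS1i and 32.7 and 32.0 CPM with IFNb in SCR, and between 19.6 and 34.4 CPM in IFNAR1sg. It rose in SCR by 1.01 ± 0.21 (MPS1i) and 0.77 ± 0.22 (IFNb), the latter call being lost without TMM scaling (0.28, adjusted p = 0.33) or without IFNb library 1 (0.75, adjusted p = 0.057). In IFNAR1sg the values were 0.38 ± 0.21 (adjusted p = 0.2) and -0.19 ± 0.21 (adjusted p = 0.87). The IFNb difference between the genotypes was 0.96 ± 0.31 (adjusted p = 0.029; 0.54 and adjusted p = 0.22 without TMM scaling; lost in 7 of 12 fits with 1 library left out, adjusted p up to 0.14), and the MPS1i difference was 0.63 ± 0.30 (adjusted p = 0.71). The next in mean level, LTR12C regions in introns of MARCHF6, a ubiquitin ligase, and SPECC1 (chr5:10375326-10376516 and chr17:20016235-20017144, both plus strand), had MPS1i values in SCR of 0.23 ± 0.24 and -0.07 ± 0.29 that did not pass. In IFNAR1sg the MARCHF6 region rose by 0.62 ± 0.23 with MPS1i (adjusted p = 0.05 after rounding, just under the threshold), a call lost in 9 of 12 fits with 1 library left out, and the SPECC1 region was at -0.11 ± 0.28.

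HERV9NC-int regions went in both directions. At chr12:8793429-8793831, plus strand, a region in an intron of LINC02972 was at 1.17 and 1.55 CPM with DMSO and 7.73 and 5.83 CPM with MPS1i in SCR. IFNAR1sg libraries were at 0.889 and 1.91 against 9.36 and 5.07 CPM. The changes were 2.29 ± 0.50 (adjusted p = 0.0005) and 2.28 ± 0.48 (adjusted p = 0.0003). LINC02972 is annotated to begin 41 bp past an LTR12C region at chr12:8787553-8788233. A gene on the other strand, A2ML1-AS1, overlaps the HERV9NC-int region.

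The HERV9NC-int region that holds most HERV9 reads, 640, lies at chr1:119173367-119178211, plus strand, in an intron of WARS2-AS1. It was at 14.3 and 15.1 CPM with DMSO, 5.87 and 3.45 CPM with MPS1i and 3.72 and 0.376 CPM with IFNb in SCR. Its IFNAR1sg levels were 12.2 and 20.4, 7.94 and 6.55, and 12.6 and 13.9 CPM. It fell in SCR by 1.70 ± 0.35 with MPS1i and by 2.82 ± 0.44 with IFNb, and in IFNAR1sg by 1.19 ± 0.30 with MPS1i. The IFNb change differed between the genotypes by -2.51 ± 0.54 (adjusted p = 0.00078). The other intron reads of WARS2-AS1 fell by 1.16 and 1.70 in SCR and by 0.76 with MPS1i in IFNAR1sg, and their IFNb difference was -1.32 (adjusted p = 9.7e-12). The region's call with MPS1i in IFNAR1sg was lost without DMSO library 2 (-0.75, adjusted p = 0.23), and its IFNb difference without SCR IFNb library 2 (-1.67, adjusted p = 0.062).

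**Figure D4:**
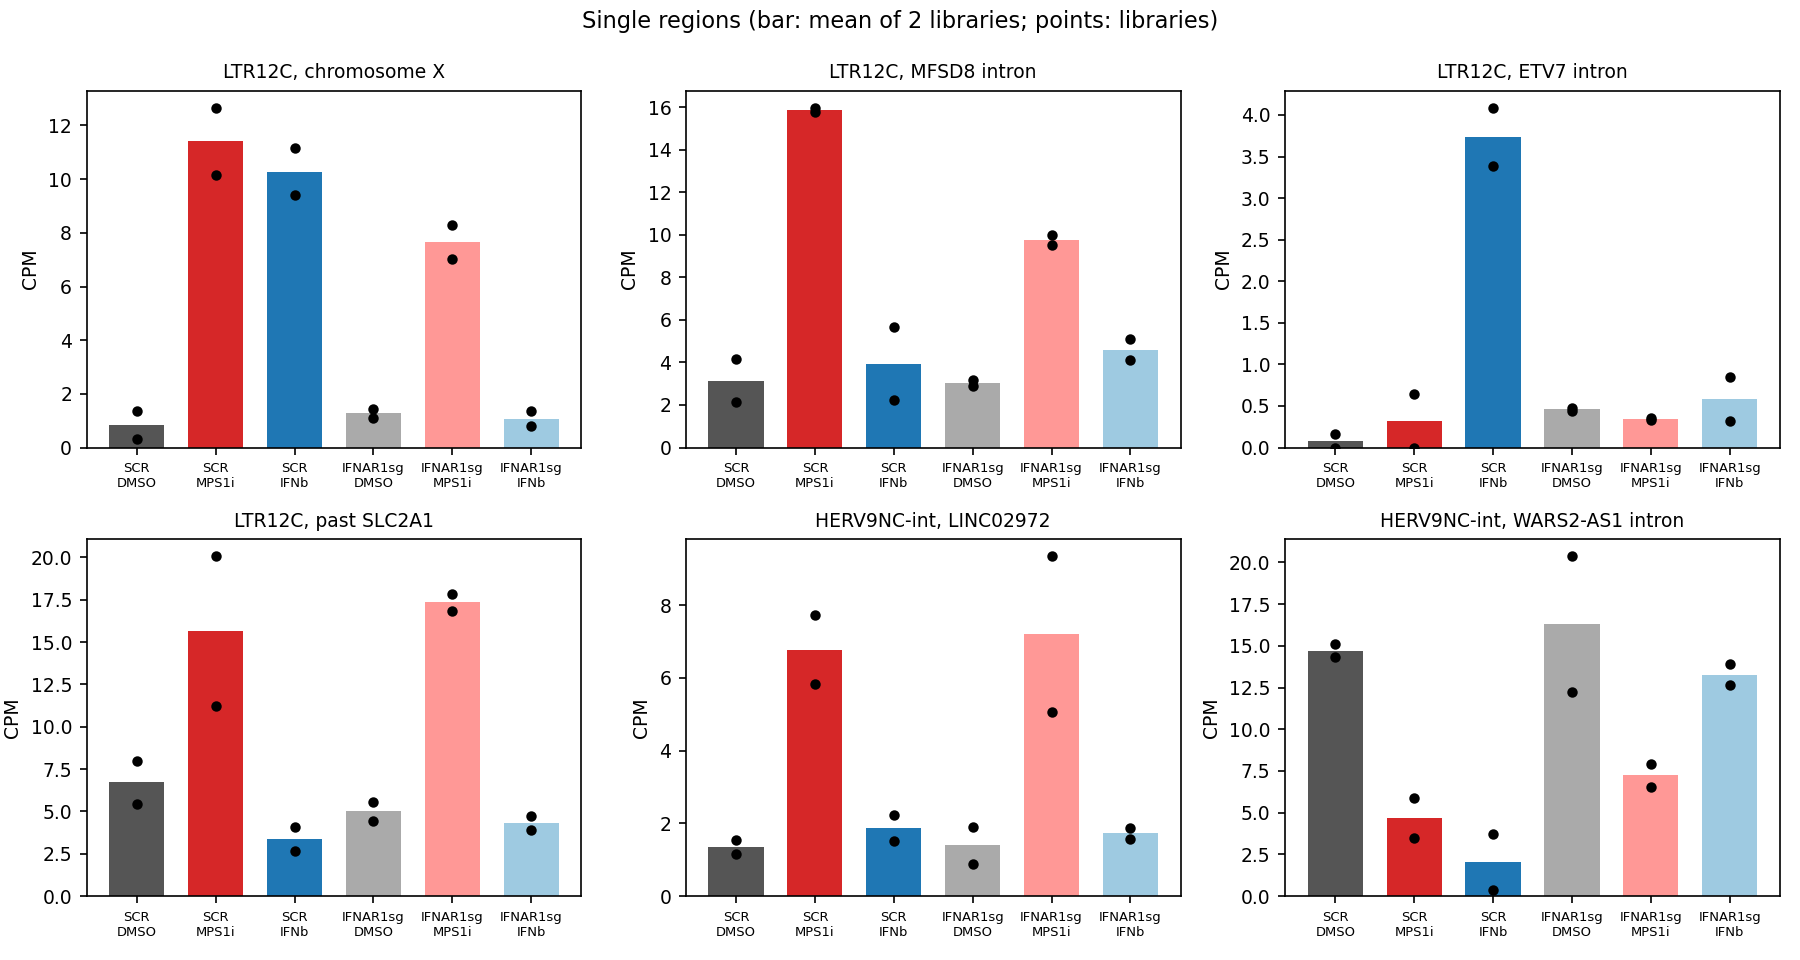
Levels in CPM of 6 regions in the 6 groups, with bars at the mean of 2 libraries and points for the libraries. The chromosome X region is high with MPS1i and IFNb in SCR but with MPS1i only in IFNAR1sg, the MFSD8, SLC2A1 and LINC02972 regions are high with MPS1i in both genotypes, the ETV7 region is high with IFNb in SCR, and the WARS2-AS1 region is lowest with IFNb in SCR.

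The other 2 regions that fell with MPS1i in SCR also lay in introns of genes whose intron reads fell. An LTR12B region of XPO4, an export receptor (chr13:20876967-20878144, minus strand), was at 4.67 and 2.52 CPM with DMSO, 0.927 and 0.216 CPM with MPS1i and 0.743 and 0.376 CPM with IFNb in SCR. Its changes were -2.75 ± 0.76 with MPS1i in SCR, -2.64 ± 0.82 with IFNb in SCR and -2.46 ± 0.71 with MPS1i in IFNAR1sg, beside -0.67, -0.82 and -0.57 for the gene. An LTR12_ region of IGF2BP3, an RNA-binding protein of fetal and tumour tissue (chr7:23406082-23407139, minus strand), changed in SCR by -1.32 ± 0.44 with MPS1i and -1.96 ± 0.52 with IFNb, beside -0.74 and -1.69 for the gene. The 3 regions that fell with MPS1i in SCR were all among the 9 that fell with IFNb, and both contrasts share the DMSO libraries. The XPO4 call with MPS1i in SCR was lost without DMSO library 1 (-2.23, adjusted p = 0.13) or MPS1i library 2 (-1.94, adjusted p = 0.22), that with IFNb without DMSO library 1 (-2.09, adjusted p = 0.13) or IFNb library 2 (-2.24, adjusted p = 0.12), and that in IFNAR1sg without DMSO library 1 (-2.26, adjusted p = 0.069) or MPS1i library 1 (-1.76, adjusted p = 0.15). Leaving out either DMSO library or either MPS1i library lost the IGF2BP3 call with MPS1i (adjusted p from 0.06 to 0.27), and its call with IFNb was lost without IFNb library 2 (-1.81, adjusted p = 0.055).

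With IFNb in SCR an LTR12C region in an intron of ETV7, an interferon-induced transcription factor (chr6:36363032-36363487, minus strand), went from 0.167 and 0 CPM to 4.09 and 3.39 CPM (5.04 ± 1.34, adjusted p = 0.0023; 0.052 without IFNb library 1), and in IFNAR1sg it was between 0.316 and 0.850 CPM in all 6 libraries. Its IFNb difference between the genotypes was 4.74 ± 1.91 (adjusted p = 0.089). The other intron reads of ETV7 rose with IFNb by 4.43 in SCR. In IFNAR1sg those reads numbered 0 and 0 with DMSO, 4 and 1 with MPS1i and 3 and 3 with IFNb, and neither change passed (adjusted p = 0.074 and 0.38), too few for a fold. An LTR12_ region of NSUN6, an RNA methyltransferase (chr10:18586133-18587866, minus strand), rose by 1.33 ± 0.40 with IFNb, while the gene's other intron reads fell by 0.73. It was at 4 and 3.68 CPM with DMSO and 11.5 and 7.90 CPM with IFNb, and the call was lost without TMM scaling (0.84, adjusted p = 0.086) or without IFNb library 1 (1.03, adjusted p = 0.17). An LTR12C region of UBR3, a ubiquitin ligase (chr2:169842299-169843360, plus strand), changed by -3.68 ± 1.14, beside -1.53 for the gene, and its DMSO libraries differed from each other (4.5 and 0.775 CPM). Without the higher of them the call was lost (-1.89, adjusted p = 0.41). An LTR12 region outside genes (chr3:104400117-104401558, minus strand) was at 1.83 and 0.968 CPM with DMSO and listed at 0 in both IFNb libraries, a call lost without DMSO library 1 or either IFNb library (adjusted p from 0.081 to 0.1). An LTR12_ region outside genes (chr7:152515031-152516483, minus strand) was at 2.78 and 4.97 CPM with MPS1i against 0 and 0.752 CPM with IFNb in SCR (3.32 ± 0.92, adjusted p = 0.0092; 0.17 without IFNb library 1).

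**Figure D5:**
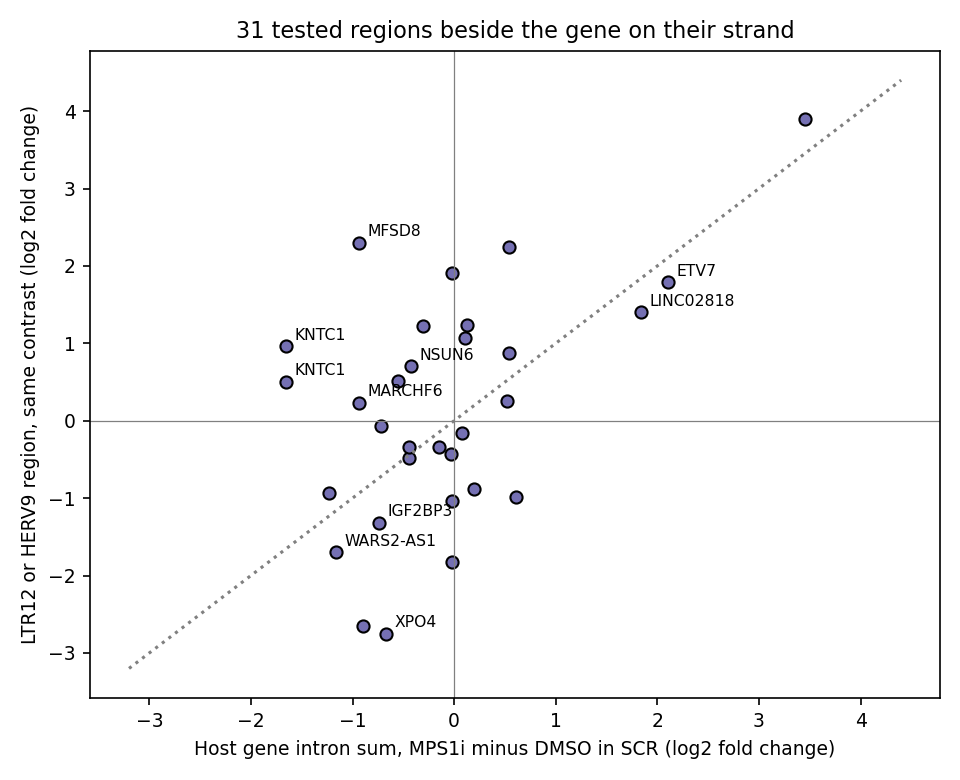
Change with MPS1i in SCR of 31 tested regions (vertical) against that of the other intron reads of the gene on their strand (horizontal), both as log2 fold changes, with the line of equality dotted. The MFSD8 region stands at 2.30 while its gene stands at -0.94, and the WARS2-AS1, XPO4 and IGF2BP3 regions lie below 0 together with their genes.

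The genes annotated to start at member regions had 19 intron sums that could be tested. With MPS1i in SCR 8 rose and 4 fell, against 22.2% and 21.4% of the 14637 gene sums tested, and in IFNAR1sg 6 rose and 2 fell, against 26.8% and 19.4%. With IFNb in SCR 4 rose and 5 fell, against 7.92% and 38.5%. ENSG00000251598 went from 1.67 and 0.387 CPM to 11.1 and 12.5 CPM with MPS1i and 9.67 and 6.77 CPM with IFNb in SCR (3.44 ± 0.44 and 2.92 ± 0.48), and from 2.89 and 1.11 to 11.3 and 11.3 CPM with MPS1i in IFNAR1sg (2.57 ± 0.39). KCNN2, a calcium-activated potassium channel with a transcript that starts 89 bp past an LTR12C region, went from 0.333 and 0.387 CPM to 4.02 and 5.83 CPM with MPS1i in SCR (3.71 ± 0.73) and from 0.889 and 1.91 to 5.30 and 4.09 CPM in IFNAR1sg (1.67 ± 0.57). LINC02818 rose by 1.84 ± 0.64 and 1.94 ± 0.58 with MPS1i, and ENSG00000249174 by 2.96 ± 0.81 in SCR, with 1.36 ± 0.75 (adjusted p = 0.13) in IFNAR1sg. LINC02936 rose with IFNb in SCR by 1.05 ± 0.20, from 21.0 and 16.8 CPM to 42.4 and 36.5 CPM. ENSG00000270265 fell with MPS1i in SCR by 1.29 ± 0.45. A gene sum counts intron reads of all its transcripts, so it does not show where transcription began, and 25 of the 40 regions at these starts had reads at all. The regions beside the KCNN2 and ENSG00000249174 starts had 0 reads in all 12 libraries.

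Genes named in the literature for an LTR12 or ERV9 promoter or enhancer were few in these data: 4 of 8 could be tested. With MPS1i in SCR 1 rose and 0 fell, near the shares of all gene sums (22.2% and 21.4%). It was GBP2, an interferon-induced GTPase, which changed by 2.55 ± 1.06 in SCR and 2.78 ± 1.11 in IFNAR1sg. TP63, a p53-family transcription factor, was at 10.2 and 11.4 CPM with DMSO and at 1.49 and 1.5 CPM with IFNb in SCR and fell by 2.83 ± 0.46. TNFRSF10B, a death receptor, and RAE1, an mRNA export factor, fell with IFNb in SCR by 1.06 and 1.00. GBP2 rose there by 2.83 ± 1.08 (adjusted p = 0.023). With IFNb in SCR 1 of the 4 thus rose and 3 fell, against 7.92% and 38.5% of all gene sums. TNFRSF10B also fell with IFNb in IFNAR1sg, by 0.41 ± 0.11 (adjusted p = 0.022), where 0.642% of all gene sums fell. With MPS1i in IFNAR1sg 1 rose (GBP2) and 1 fell (TP63, by 0.73), against 26.8% and 19.4%. A further list held 24 genes of factors known to bind or silence LTR12, ERV9 or other endogenous retroviruses, and 22 could be tested. With MPS1i in SCR 1 rose and 8 fell (22.2% and 21.4% of all gene sums), and in IFNAR1sg 1 rose and 9 fell (26.8% and 19.4%). With IFNb in SCR 1 rose and 11 fell (7.92% and 38.5%). With MPS1i in SCR DNMT1, the maintenance DNA methyltransferase, fell by 1.42 ± 0.24, UHRF1, its recruiting partner, by 1.32 ± 0.18, SETDB1, a histone H3 lysine methyltransferase, by 1.16 ± 0.19, and NFYC, a subunit of the CCAAT-binding factor NF-Y, by 1.09 ± 0.16. DAXX, a histone chaperone, rose by 1.58 ± 0.44 in SCR and was at 0.68 ± 0.39 in IFNAR1sg (edgeR, adjusted p = 0.15). ATRX, its partner, fell by 0.59 ± 0.12 in SCR and by 0.38 ± 0.11 in IFNAR1sg. In IFNAR1sg DNMT1, UHRF1 and SETDB1 fell by 1.04, 1.28 and 1.09, and GATA2 rose by 1.97 ± 0.50.

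Of 12 genes of double-stranded RNA sensing, 11 could be tested. With MPS1i in SCR 10 rose and 1 fell (22.2% and 21.4% of all gene sums), in IFNAR1sg 8 rose and 1 fell (26.8% and 19.4%), and with IFNb in SCR 10 rose and 1 fell (7.92% and 38.5%), with MAVS, the adaptor of the RIG-I-like receptors, as the 1 that fell in each. With IFNb in IFNAR1sg 6 rose and 0 fell, against 0.642% and 0.642% of all gene sums. IFIH1, the sensor MDA5, was at 32.5 and 35.2 CPM with DMSO, 236 and 214 CPM with MPS1i and 311 and 274 CPM with IFNb in SCR, and at 34 and 27.4, 103 and 107, and 75.8 and 61.7 CPM in IFNAR1sg. Markers of other cell types moved too: the intron sum of FAP, a fibroblast protease, rose with MPS1i by 3.62 ± 0.39 in SCR and 3.26 ± 0.39 in IFNAR1sg. Those of CD4 and CD8A had wider errors and rose by 2.30 ± 0.83 and 3.62 ± 0.89 in SCR. In IFNAR1sg they rose by 2.37 ± 0.79 and 3.03 ± 0.90. ACTA2, the other fibroblast marker that could be tested, was at 1.38 ± 0.60 (adjusted p = 0.051) in SCR and 0.27 ± 0.61 (adjusted p = 0.75) in IFNAR1sg. Their part in the result was not tested. Of the other fibroblast and immune markers COL1A1, COL3A1, PDGFRB, PTPRC and CD3E had 6, 7, 27, 9 and 3 reads in all and MS4A1 had 0. COL1A2 and CD68 were not tested either.

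Over the 6 group means, the other repeat subfamilies whose log2 CPM followed LTR12C most closely were L1PB1 (Pearson r = 0.995), HERVE-int (0.992), LTR67B (0.992), L1PA3 (0.991) and MER4-int (0.991). These r values are a description over 6 points that share libraries and scaling. HERVE-int had 5.03 CPM with DMSO and 21.5 CPM with MPS1i in SCR as group means, a change of 2.06, and 1.96 in IFNAR1sg. L1PB1 changed by 0.73 and 0.69, and MER4-int by 0.87 and 1.00.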

How the data were processed

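The authors deposited 1 table of counts, whole numbers of reads per stranded region, not normalized, with gene and repeat annotation. Per the submitters' processing notes HOMER, featureCounts, STAR and 3 read trimmers (cutadapt, Trimmomatic, Trim Galore) were used, with builds GRCh38 and hg38. The treatment of reads that map to several repeat copies is not stated, so reads of near-identical copies may be assigned to the wrong region. Per the labels' protocols the kit was stranded.

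Members and gene lists were chosen with earlier results of these data known, and sums by flank, depth class and transcript start were added after the data were seen. Regions were tested with edgeR 4.0.16 (R 4.3.3) by its quasi-likelihood test with 1 coefficient per group, filterByExpr (minimum count 10), TMM scaling and Benjamini-Hochberg adjustment over all 89111 regions kept, at adjusted p under 0.05. Subfamily sums (regions with 1 repeat name and no exon base) and gene sums (regions on the strand of 1 gene, no exon base, members left out) used the same factors. Genes are from GENCODE v29. Regions named are the 10 in each direction with the smallest p for MPS1i in SCR, 5 for other contrasts and the 5 with the highest mean CPM. On simulated data for MPS1i in SCR the region test recovered 5% of 2-fold and 73% of 4-fold changes over 89111 regions. The sum test recovered 73% and 100% over 1813 sums. Each simulation changed 200 features and gave all features the same spread. In the data 8507 regions rose and 7100 fell in this contrast, so these rates are not the power of the test there. Alternatives are in the closing section. Some transcript start sequences are not reported here.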

Additional observations from a re-analysis of the deposited data

Results flagged for a closer look

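Effects of IFNb that differed between SCR and IFNAR1sg, by a test of the difference itself, were found for 3 sums and 4 of the 67 tested regions. Of all 89111 regions 5.11% passed upward and 7.06% downward, and of all 1811 subfamily sums 3.04% and 19.8%. The median difference over all subfamilies was -0.45. For the HERV9 sum the difference (SCR change minus IFNAR1sg change) was -1.14 on the log2 scale, for HERV9NC-int -1.14 and for LTR12C 0.38. For the WARS2-AS1 intron region (HERV9NC-int) it was -2.51. For the LTR12C regions it was 3.90 on chromosome X, 4.71 at chr5:30346551 and 0.96 at chr4:69574564. The LTR12C sum difference was lost without any 1 of 4 libraries and that of the chr4:69574564 region in 7 of 12 fits with 1 library left out. In such fits the chr5:30346551 difference ran from 3.43 to 7.68 (lost in 5 of 12) and the WARS2-AS1 difference from -4.90 to -1.67 (lost in 1). Over 12 other settings the HERV9 sum difference ran from -1.82 to -0.57 and was lost in 2. That of HERV9NC-int ran from -1.85 to 0.48 and was lost or reversed in 3. No difference between the genotypes in the MPS1i change passed for these families. Each of these rests in part on the 2 SCR IFNb libraries that stand apart in depth, and their part was not tested. Groups of 2 libraries allow no test for single outlying libraries.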

How the results depend on the processing

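The rise of the LTR12 and HERV9 sums with MPS1i kept its direction and passed in both genotypes under every alternative run except the intron regions of HERV9 (0.12 in SCR and 0.29 in IFNAR1sg). The cause of the changes below was not tested. By DESeq2's Wald test the tested member regions past the threshold numbered 11 with MPS1i in SCR and 7 with IFNb in SCR. They numbered 11 with MPS1i in IFNAR1sg and 3 between MPS1i and IFNb. Over all 89111 regions that test called 4480 higher and 3421 lower with MPS1i in SCR, and 10450 and 8265 with IFNb in SCR. It called 3730 and 3279 with MPS1i in IFNAR1sg, and 2557 and 4709 between MPS1i and IFNb. Without the filter the members past the threshold numbered 11, 6, 12 and 4, and 2 for the difference in the IFNb change. There 2830514 regions were tested. Of these 3064 rose and 3191 fell with MPS1i in SCR, and 3931 and 2215 in IFNAR1sg. With IFNb in SCR 4241 rose and 10249 fell. With the compared groups only, 7 members passed between MPS1i and IFNb, against 5517 higher and 4064 lower of 36500 regions. Fits with 1 library left out kept 106429 to 128654 regions, and the next counts are of members. Leaving out 1 library gave 10 to 22 with MPS1i in SCR (10 without SCR MPS1i 1, 11 without SCR DMSO 2), 4 to 15 with IFNb in SCR (4 without SCR IFNb 1, 8 without SCR DMSO 1), 8 to 24 with MPS1i in IFNAR1sg (8 without IFNAR1sg DMSO 2), 1 to 4 for the IFNb difference (1 without SCR IFNb 2, 2 without either IFNAR1sg DMSO library) and 4 to 15 between MPS1i and IFNb (4 without either SCR IFNb library, 7 without SCR MPS1i 2). The LTR12 sum with IFNb in SCR was 0.48 (adjusted p = 0.00014) outside genes, -0.14 in introns, -0.34 without TMM, -0.061 with the compared groups only, -0.11 without the filter and 0.060 to 0.30 with 1 library left out (0.30, adjusted p = 0.016, without SCR DMSO 1). Its IFNb difference was 0.55 (adjusted p = 0.008) outside genes, -0.055 in introns, -0.19 without TMM, -0.13 without the filter and 0.11 to 0.36 with 1 library left out. Its MPS1i difference was -0.064 in introns, -0.0032 without TMM, -0.063 without the filter and -0.034 to 0.20 with 1 library left out. With IFNb in IFNAR1sg it was 0.014 without the filter, and between genotypes under DMSO -0.038 to 0.22 with 1 library left out. The HERV9 sum was -0.69 (IFNb in SCR) and -0.84 (IFNb difference) in regions opposite to genes, and its IFNb difference was -0.57 outside genes. With IFNb in IFNAR1sg it was 0.15 opposite to genes and -0.30 to 0.027 with 1 library left out. Between genotypes under DMSO it was -0.45 opposite to genes, -0.049 without the filter, -0.0725 without its most-read region and -0.18 to 0.13 with 1 library left out. Opposite to genes HERV9N-int was -0.041 with MPS1i in SCR, and HERV9NC-int 0.16 with IFNb in SCR and 0.48 for the IFNb difference. In introns HERV9NC-int was -0.043 with MPS1i and LTR12C -0.038 with IFNb in SCR, and LTR12C without TMM was -0.22 with IFNb and -0.039 for the IFNb difference. Replicate numbers did not pair the libraries (correlations -0.057 to 0.089 over 15 pairs of groups). With the replicate block 18 member regions passed with MPS1i in SCR, against 8831 higher and 7218 lower of all 89111 regions. The LTR12 and HERV9 sums changed there by 1.19 and 1.03. Most regions held too few reads for a test of their own.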
